A study of Mus musculus with 6 samples.

Results

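The 10 genes described here encode parts of the circadian clock: Clock, Per1, Per2, Per3, Cry1, Cry2, Ciart, Nr1d1, Nr1d2 and Dbp. They were taken by symbol from a table of 19251 genes, all 10 were found, and all 10 were among the 19109 genes tested. Their levels were compared in the substantia nigra, a midbrain nucleus with many dopaminergic neurons, between C57BL/6 mice fed ad libitum and mice on intermittent fasting, with 3 libraries of polyadenylated RNA per diet. Every mouse, of either diet, carried rAAV-A53T-aSynuclein, a recombinant adeno-associated virus that delivers the A53T form of alpha-synuclein as a model of Parkinson's disease, so there is no group without the vector. The diets began 2 weeks after surgery and lasted 10 weeks. Fasts of 24 hours began on 3 days a week at 15 h Central European Time, 2 hours before lights off, and mice of both diets were moved between cages at that hour. The sources used here state neither the hour of tissue collection nor the time since the last fast, nor the age and sex of the mice, nor the promoter of the vector, and it is not stated whether libraries are separate animals.

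The mammalian clock is a feedback loop of transcription that runs in most cells and completes a cycle in about a day. CLOCK and BMAL1 bind E-box elements and switch on the Per, Cry, Ciart, Nr1d1 and Dbp genes, whose PER, CRY and CIART proteins then repress CLOCK and BMAL1. In another loop NR1D1 and NR1D2 repress Bmal1 through ROR elements, which the ROR receptors activate, and DBP drives output genes through D-boxes. Feeding time, glucocorticoids and body temperature are known to set the phase of clocks outside the suprachiasmatic nucleus.

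The elements of these loops can be read in the promoters of some of the genes. RefSeq promoter windows on GRCm38.p6, each with 250 bases before and 50 after a start site, were at hand for 9 of the 10 genes, in 12 windows. Per2 had no window and was not searched. The searched motifs were the E-box CACGTG, the related E-prime box CACGTT, the D-box TTATGTAA, the cAMP response element TGACGTCA and a ROR element core TAGGTCA. Each was sought on both strands with overlapping matches allowed, and no matches overlapped in the windows of the clock genes. In the windows below, written 5′ to 3′ along the gene's strand, capitals mark the matches. They show the genes in which an exact E-box or D-box lay near the start, and Nr1d1 for contrast.
Per1, chr11:69098699-69098998, plus strand: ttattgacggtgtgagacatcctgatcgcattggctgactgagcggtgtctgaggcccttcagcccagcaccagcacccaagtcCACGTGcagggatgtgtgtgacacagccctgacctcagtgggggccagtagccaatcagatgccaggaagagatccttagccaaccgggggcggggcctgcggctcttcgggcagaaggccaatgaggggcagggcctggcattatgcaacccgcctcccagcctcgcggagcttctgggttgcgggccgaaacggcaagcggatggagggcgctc
Cry1, chr10:85185005-85185304, minus strand: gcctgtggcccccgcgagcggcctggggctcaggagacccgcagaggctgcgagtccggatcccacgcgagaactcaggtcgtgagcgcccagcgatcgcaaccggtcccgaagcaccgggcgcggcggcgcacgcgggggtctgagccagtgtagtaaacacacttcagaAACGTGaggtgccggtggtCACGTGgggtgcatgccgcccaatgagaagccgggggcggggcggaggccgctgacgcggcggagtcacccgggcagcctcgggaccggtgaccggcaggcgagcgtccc
Ciart, chr3:95882179-95882478, minus strand: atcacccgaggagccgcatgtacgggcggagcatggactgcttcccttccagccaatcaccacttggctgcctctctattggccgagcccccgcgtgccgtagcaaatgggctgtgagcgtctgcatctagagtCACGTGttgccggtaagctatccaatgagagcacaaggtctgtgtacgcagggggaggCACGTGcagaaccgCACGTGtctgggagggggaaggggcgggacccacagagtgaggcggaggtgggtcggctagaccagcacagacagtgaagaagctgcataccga
Per3, chr4:151044616-151044915, minus strand: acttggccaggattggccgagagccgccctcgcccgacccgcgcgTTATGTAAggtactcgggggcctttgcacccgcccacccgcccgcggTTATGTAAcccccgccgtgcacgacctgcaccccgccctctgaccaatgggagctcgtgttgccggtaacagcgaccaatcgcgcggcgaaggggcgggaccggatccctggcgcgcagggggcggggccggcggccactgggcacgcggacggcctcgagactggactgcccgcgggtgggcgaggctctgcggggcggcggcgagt
Nr1d1, chr11:98775328-98775627, minus strand: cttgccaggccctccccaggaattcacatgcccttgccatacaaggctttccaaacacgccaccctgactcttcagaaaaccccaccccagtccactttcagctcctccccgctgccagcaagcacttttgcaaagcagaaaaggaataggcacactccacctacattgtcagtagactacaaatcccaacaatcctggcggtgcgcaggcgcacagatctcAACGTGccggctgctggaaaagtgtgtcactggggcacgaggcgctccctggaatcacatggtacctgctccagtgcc

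Ciart held 3 E-boxes, which began 116, 58 and 44 bases before the start. Cry1 held 1 E-box, 60 bases before the start, and 1 E-prime box. In its upstream window Per1 held 1 E-box, 166 bases before the start site, and its other window held no match. Per3 held no E-box but 2 D-boxes, 205 and 158 bases before the start. Nr1d1 and Cry2 each held 1 E-prime box. No match to any of the 5 motifs lay in the windows of Clock, Nr1d2 and Dbp, which says only that these letters are not in those windows. Of all 32851 promoter windows of this length, 7.15% held the E-box, 4.68% the E-prime box, 0.938% the D-box, 1.79% the cAMP response element and 2.61% the ROR element core. A match is a description of the sequence and not a measured binding site.

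Under fasting the repressor genes Per1, Per2, Cry1 and Cry2 had means 1.17-fold to 1.28-fold those of ad libitum feeding. For Ciart and Per3, also repressors of CLOCK and BMAL1, the ratios were 1.19-fold and 1.09-fold. The means of Clock, Nr1d1, Nr1d2 and Dbp differed by at most 1.115-fold in either direction. None of the 10 genes passed the test: 0 of 10 had an edgeR adjusted p below 0.05, against 0.497% of all 19109 genes (95 genes). At an unadjusted p below 0.05 there were 4 of 10, all higher under fasting, against 20.4% of all genes in either direction and 8.74% in that direction. DESeq2 called 1 of the 10, Per2, where it called 7.4% of the genes it tested, 2.9% as higher. In 3 of 10, Per2, Cry1 and Cry2, every fasting library lay above every ad libitum library, against 12.5% of all genes, and no clock gene lay wholly below (27.5% of all genes were separated in either direction). Log2 fold changes were above 0 in 7 of the 10 and in 49.1% of all genes. The median log2 fold change of the 10 genes was 0.17, against -0.0050 for all genes tested. Levels are given in CPM, counts scaled to library size with TMM factors. Differences are those of fasting from ad libitum feeding, positive where fasting was higher, and 95% intervals come from the edgeR fit.

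**Figure D1:**
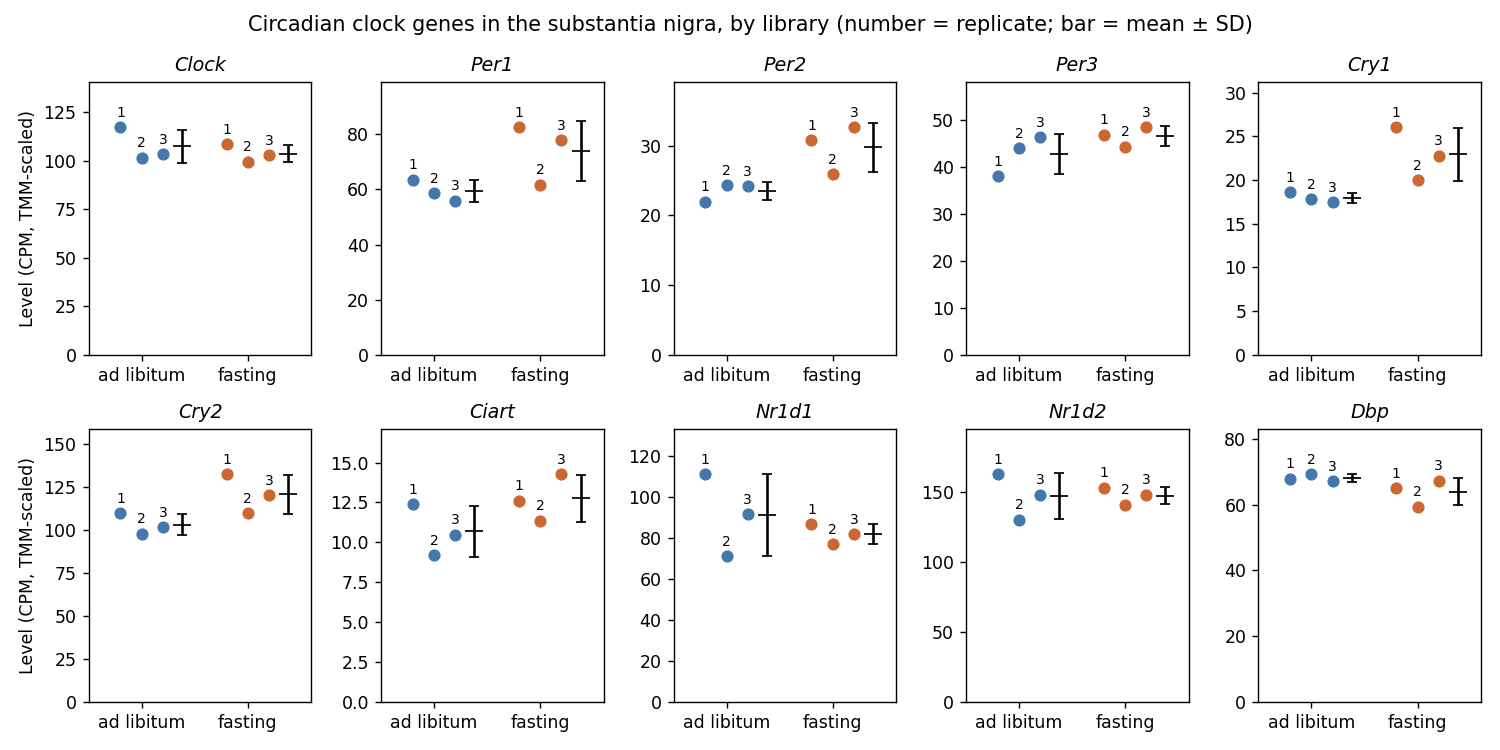
Level in CPM (vertical axes, from 0) of each of the 10 clock genes in the 3 ad libitum (blue) and 3 fasting (orange) libraries, numbered by replicate, with mean ± SD as bars. Per2, Cry1 and Cry2 do not overlap between diets, and fasting replicate 2 is the lowest fasting library in all 10 panels.

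Per1 (ENSMUSG00000020893), the period gene that also responds within minutes to hours to cAMP and glucocorticoid signals, was at 63.6, 58.6 and 55.9 CPM in ad libitum replicates 1, 2 and 3, and at 82.6, 61.8 and 77.9 CPM in fasting replicates 1, 2 and 3. Fasting replicates 1 and 3 stood above all ad libitum libraries, and fasting replicate 2 lay below ad libitum replicate 1, so the groups overlapped. The means were 59.4 ± 3.89 and 74.1 ± 10.9 CPM (SD, n = 3), a log2 difference of 0.32 and a standard error of 0.11 (adjusted p = 0.183 by edgeR). Its 95% interval, from 0.05 to 0.59, did not contain 0, but the adjusted p did not pass.

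Per2 (ENSMUSG00000055866), whose protein is a core partner of CRY in the repressor complex, was at 22.0, 24.3 and 24.2 CPM in the ad libitum libraries, against 30.8, 25.9 and 32.7 CPM in the fasting libraries. The groups did not overlap, but fasting replicate 2 was close to the ad libitum libraries. The difference was 1.27-fold, a log2 difference of 0.34 (standard error 0.10, 95% interval 0.11 to 0.57, edgeR adjusted p = 0.124). DESeq2 gave 0.34 with an adjusted p of 0.0489, just inside the threshold, so the call rested on the tool. Per3 (ENSMUSG00000028957), the period gene not required for the rhythm itself, was at 38.1, 44.0 and 46.4 CPM in the ad libitum libraries, against 46.9, 44.3 and 48.5 CPM in the fasting libraries. Its groups overlapped, ad libitum replicate 1 being the low library, and the log2 fold change was 0.12 (95% interval -0.07 to 0.32, edgeR adjusted p = 0.46).

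Cry1 (ENSMUSG00000020038), the stronger and later-peaking of the cryptochrome repressors, was at 18.6, 17.8 and 17.5 CPM in the ad libitum libraries, against 26.1, 20.0 and 22.8 CPM in the fasting libraries. The ad libitum libraries lay close together and below all fasting libraries. With 1.28-fold, from 17.9 ± 0.593 to 22.9 ± 3.05 CPM (SD, n = 3), this was the largest ratio among the 10 genes, at a log2 difference of 0.35 (standard error 0.10, 95% interval 0.11 to 0.59, edgeR adjusted p = 0.126). Cry2 (ENSMUSG00000068742), the other cryptochrome, was at 109.6, 97.8 and 102 CPM in the ad libitum libraries, against 132, 109.8 and 120.0 CPM in the fasting libraries. Here fasting replicate 2 exceeded ad libitum replicate 1 by less than 1 CPM, so the separation of the groups was narrow. The log2 fold change of Cry2 was 0.23 (standard error 0.08, 95% interval 0.03 to 0.42, edgeR adjusted p = 0.187).

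Ciart (ENSMUSG00000038550), also called Chrono, a repressor that binds BMAL1, was at 12.4, 9.19 and 10.5 CPM in the ad libitum libraries, against 12.6, 11.4 and 14.3 CPM in the fasting libraries. The groups overlapped through ad libitum replicate 1. Its log2 fold change was 0.26 (95% interval -0.06 to 0.58, edgeR adjusted p = 0.344). Of the transcript sequence of Ciart, in words of 31 bases, 20.8% also occurs in other genes, mainly Gm9176, so its counts are less certain. The 6 repressors of CLOCK and BMAL1 among the 10 genes all had log2 fold changes above 0, as 49.1% of all genes had. The values ran from 0.12 to 0.35 with a median of 0.29, and 0 of the 6 passed. Bhlhe40 and Bhlhe41, E-box repressors among the other clock genes, and Timeless, grouped with them in that list, were near 0, at -0.019, 0.010 and 0.020. The place of Timeless in that group is only that of the list, and its role was not examined here.

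Clock (ENSMUSG00000029238), the activator that pairs with BMAL1, was at 117, 102 and 103 CPM in the ad libitum libraries, against 109, 99.6 and 103 CPM in the fasting libraries, with overlapping groups. Its log2 fold change was -0.05 and the 95% interval, -0.22 to 0.12, left out changes of the size seen for the means of Cry1 and Per2. Without ad libitum replicate 1, its highest library, the value was 0.02.

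Of the 10 genes Nr1d1 spanned the widest range among the ad libitum libraries. Nr1d1 (ENSMUSG00000020889), which encodes REV-ERB alpha, was at 111, 70.9 and 91.5 CPM in the ad libitum libraries, against 86.7, 76.9 and 81.6 CPM in the fasting libraries. All fasting libraries lay inside the ad libitum range, which spanned 1.57-fold against 1.13-fold under fasting. The log2 fold change was -0.16 with a wide 95% interval, -0.54 to 0.23 (edgeR adjusted p = 0.621). Leaving out ad libitum replicate 1 gave 0.0099 and leaving out ad libitum replicate 2 gave -0.32 (edgeR adjusted p = 0.175), so these libraries decided its value. Exons of Nr1d1 overlap Thra on the opposite strand over 263 bases, 8.55% of the exonic bases of Nr1d1, and the sources used here do not state whether counting used strand. Nr1d2 (ENSMUSG00000021775), which encodes REV-ERB beta, was at 163, 130.0 and 148 CPM in the ad libitum libraries, against 153, 140.8 and 148 CPM in the fasting libraries. Its order of ad libitum libraries was that of Nr1d1, and the log2 fold change was 0.0031 (95% interval -0.21 to 0.21, edgeR adjusted p = 0.987). Its sign turned without ad libitum replicate 2 (-0.084), fasting replicate 1 (-0.032) or fasting replicate 3 (-0.0049), and 9.51% of the sequence of Nr1d2 occurs in other genes.

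Dbp (ENSMUSG00000059824), the D-box activator and an output gene of high amplitude in most tissues, was at 67.9, 69.3 and 67.1 CPM in the ad libitum libraries, against 65.0, 59.3 and 67.3 CPM in the fasting libraries. The ad libitum libraries were within 1.03-fold of each other, a smaller spread (SD of log2 CPM) than in all but 3.48% of the 15553 genes of at least 1 CPM. The log2 fold change was -0.09 (95% interval -0.23 to 0.05, edgeR adjusted p = 0.434). Exons of Dbp overlap Sphk2 on the opposite strand over 18.0% of their length.

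**Figure D2:**
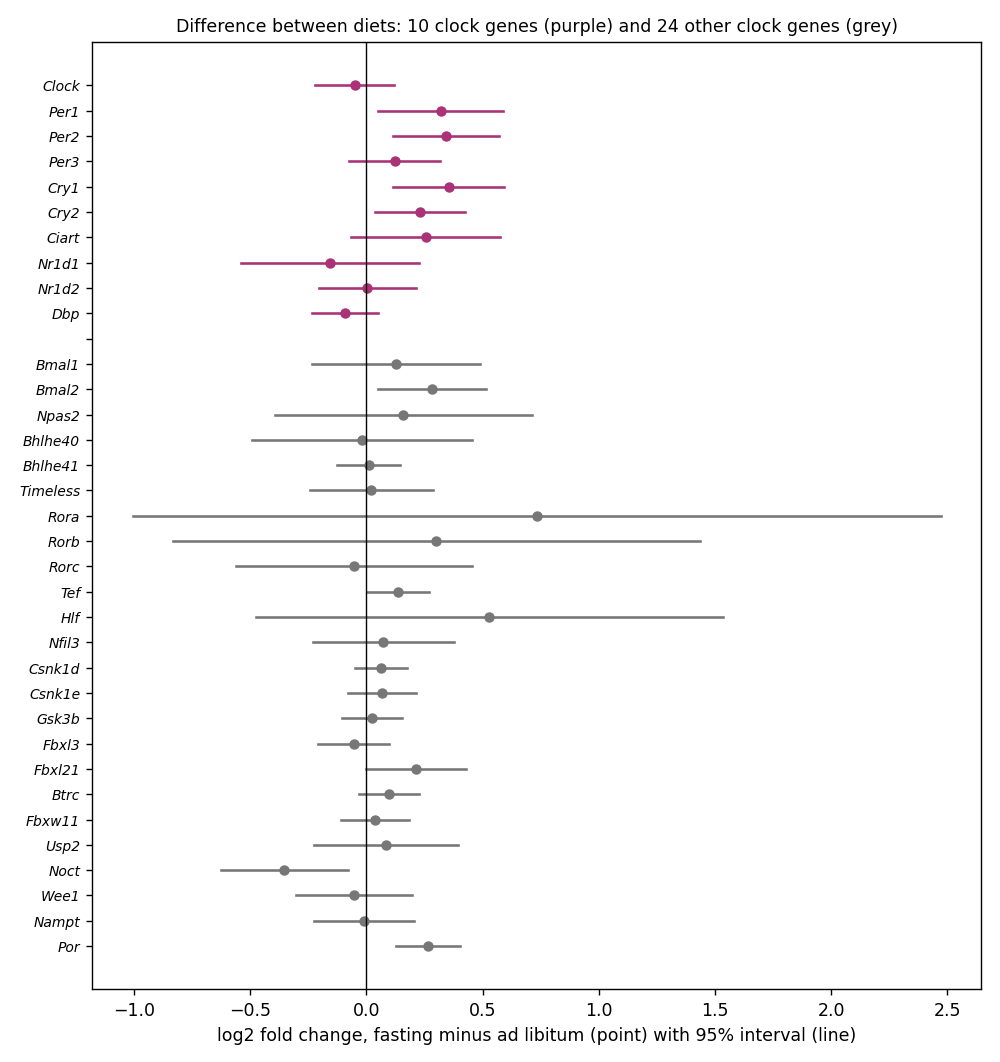
Log2 fold change, fasting minus ad libitum (horizontal axis; point) with its 95% interval from edgeR (line) for the 10 clock genes (purple) and 24 other clock genes (grey). The intervals of Per1, Per2, Cry1 and Cry2 lie above 0 before adjustment. Among the other clock genes those of Bmal2, Tef and Por also lie above 0, that of Noct lies below 0, and that of Rora is the widest.

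Spread within a diet differed between the genes. Among ad libitum libraries Per1 and Cry1 had an SD of log2 CPM at percentiles 35.0 and 12.6 of the genes of at least 1 CPM, and among fasting libraries at percentiles 85.3 and 81.6. Nr1d1 went the other way, from percentile 84.6 ad libitum to 51.6 under fasting. These percentiles rest on 3 libraries each and are given without a test. In every one of the 10 genes fasting replicate 2 was the lowest of the 3 fasting libraries, which held for 37.3% of all genes tested and for 12 of 24 other clock genes. The highest fasting library was replicate 1 in 6 genes and replicate 3 in 4. Among ad libitum libraries no library held one place throughout: replicate 1 was highest in 7 genes and lowest in 2, Per2 and Per3. Without fasting replicate 2 the log2 fold changes of Per1, Per2, Cry1 and Cry2 were at the upper end of their leave-one-out ranges, at 0.43, 0.43, 0.44 and 0.29, with 0 of 10 genes called.

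**Figure D3:**
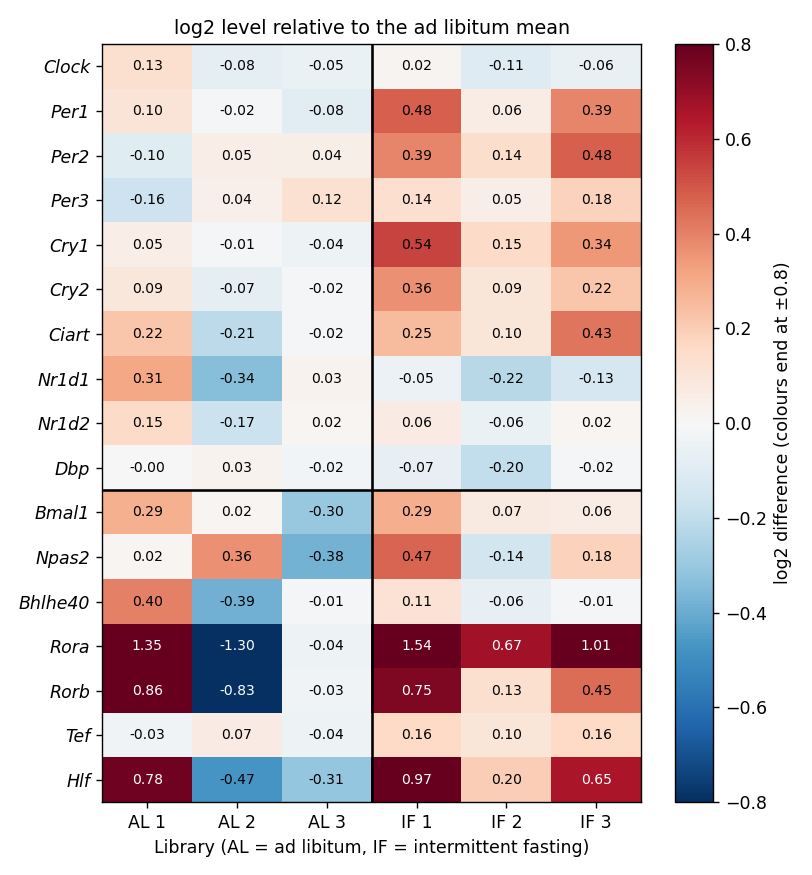
Log2 level relative to the ad libitum mean (number and colour; colours end at ±0.8) by library (columns) for the 10 clock genes and 7 other clock genes (rows). The Per, Cry and Ciart rows are highest in fasting replicates 1 and 3, and the Rora, Rorb and Hlf rows are high in ad libitum replicate 1 and fasting replicate 1 and low in ad libitum replicate 2.

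Other measures moved with fasting replicate 2 as well. The summed level of 9 dopamine neuron markers, among them Th and Slc6a3, was 1339 CPM there against 795 and 719 CPM in fasting replicates 1 and 3, and in ad libitum replicate 3 it was 1947 CPM, against 811 and 757 CPM in replicates 1 and 2. All 9 were detected in every library. The summed level of 13 glucocorticoid-responsive genes was 961 CPM in fasting replicate 2 against 1088 and 1038 CPM, and that of 10 immediate early genes 99.1 CPM against 120 and 117 CPM. Oligodendrocyte markers summed to 12196 CPM there against 9730 and 10432 CPM. In these bulk samples fewer cells of a type and less RNA per cell cannot be told apart, and the part of these differences in the clock gene values was not tested.

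Ad libitum replicate 2 stood apart by 9 measured hypothalamic neuron markers, which summed to 530 CPM there, to 26.9 and 6.18 CPM in ad libitum replicates 1 and 3 and to between 118 and 150 CPM under fasting. Most of that sum was Pmch, at 432 CPM, and Hcrt, at 71.5 CPM, which mark neurons of the lateral hypothalamus. Npvf, Oxt, Avp and Six6 were instead highest in a fasting library. Npvf was at 4.48, 1.29 and 7.19 CPM in the fasting libraries, against 0, 0.062 and 0 CPM in the ad libitum libraries, and was called by DESeq2 (adjusted p = 6.86e-06) but not by edgeR (adjusted p = 0.0599). Oxt was at 33.4 CPM in fasting replicate 1 and at 2.44 CPM in ad libitum replicate 2, and Six6 was at 0 in ad libitum replicate 1. The 4 cholinergic markers summed to 86.6 CPM in ad libitum replicate 2 and to between 5.99 and 16.3 CPM elsewhere. Without ad libitum replicate 2 the log2 fold changes were 0.30 for Per1, 0.36 for Per2, 0.34 for Cry1 and 0.19 for Cry2, against 0.32, 0.34, 0.35 and 0.23 with all libraries. That of Ciart shrank from 0.26 to 0.15. Microglia markers, 8 genes, summed to between 380 and 516 CPM ad libitum and to between 293 and 300 CPM under fasting, oligodendrocyte markers to between 13789 and 18767 and between 9730 and 12196 CPM, and 5 erythroid genes to between 429.7 and 1736 and between 254 and 657 CPM. Of these lists edgeR called 3 microglia markers and 1 oligodendrocyte marker, all lower under fasting, against 0.497% of all genes. It called 0 of the dopamine, hypothalamic, cholinergic and erythroid genes. The median log2 fold changes of these lists were -0.62, -0.53, -0.31, -0.30, -3.32 and -1.13, in the order microglia, oligodendrocyte, dopamine, hypothalamic, cholinergic and erythroid. Among the cholinergic markers 3 were lower and 1, Isl1, was higher (0.64), with its highest level in fasting replicate 3 (11.9 CPM). Chat was at 22.9 CPM in ad libitum replicate 2, against 0.66 and 2.14 CPM in ad libitum replicates 1 and 3. The edgeR test also called 0 pan-neuronal markers (median 0.14), 0 astrocyte markers (-0.24) and 0 choroid plexus and ependyma markers (-0.74). At an unadjusted p below 0.05 there were 8 of 8 microglia and 7 of 8 oligodendrocyte markers, all lower under fasting, and DESeq2 called the same numbers, against the 20.4% and 7.4% of all genes. In both lists the groups did not overlap in as many genes, against 27.5% of all genes in either direction. For the other lists the unadjusted counts were 0 dopamine, 1 hypothalamic, 0 cholinergic, 0 erythroid, 1 pan-neuronal, 3 astrocyte and 2 choroid plexus and ependyma genes, and DESeq2 called 0, 1, 0, 0, 0, 2 and 2 of them. The 3 astrocyte genes were all lower under fasting, and the hypothalamic and the pan-neuronal gene were higher. The choroid plexus and ependyma genes went opposite ways, Ccdc153 higher (log2 fold change 4.28, mean 2.16 CPM) and Kcnj13 lower (-2.65, mean 0.50 CPM). What these lists contribute to the clock gene values was not tested. Total counts ran from 42990234 to 48179706 per library and counts of the 10 clock genes from 445 to 7685. No 2 libraries of a group agreed within counting noise, with chi-square per degree of freedom from 8.19 upward.

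Of 24 other clock genes, all tested, 0 were called, against 0.497% of all genes. Log2 fold changes were above 0 in 18, against 49.1% of all genes, and the median was 0.07, against -0.0050. At an unadjusted p below 0.05 there were 3 higher and 1 lower, against 20.4% of all genes in either direction, and DESeq2 called 1, against 7.4%. The remaining activators lay higher in mean. Bmal1, listed as Arntl, was at 26.7, 22.2 and 17.7 CPM in the ad libitum libraries, against 26.8, 23.0 and 22.8 CPM in the fasting libraries, a log2 difference of 0.13 (edgeR adjusted p = 0.678). Npas2, which can stand in for CLOCK in the forebrain, was at 14.3, 18.2 and 10.8 CPM in the ad libitum libraries, against 19.5, 12.8 and 16.0 CPM in the fasting libraries. Both overlapped between diets, and both were lowest ad libitum in replicate 3. Bmal2, listed as Arntl2, had a log2 difference of 0.28 with no overlap between diets (edgeR adjusted p = 0.175).

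The PAR bZIP relatives of Dbp differed from one another in spread. Tef was at 229, 245 and 227 CPM in the ad libitum libraries, against 261, 249.9 and 261 CPM in the fasting libraries, with no overlap and a log2 difference of 0.14 (edgeR adjusted p = 0.238). Hlf was at 224, 94.2 and 105 CPM in the ad libitum libraries, against 256, 149.8 and 205 CPM in the fasting libraries, which overlapped widely (log2 fold change 0.53, SE 0.40). The ROR receptor gene Rora ran from 67.7 to 426 CPM ad libitum, 6.29-fold, and from 266 to 486 CPM under fasting, with ad libitum replicate 2 lowest. Among clock-controlled enzymes Por, the electron donor of microsomal cytochrome P450 enzymes, was at 67.2, 65.8 and 60.5 CPM in the ad libitum libraries, against 76.2, 76.3 and 80.0 CPM in the fasting libraries. That separation was clear, with a log2 difference of 0.27 (SE 0.06), yet the edgeR adjusted p was 0.0798, while DESeq2 called it (adjusted p = 0.00991). Noct, a rhythmic phosphatase also called nocturnin, was lower in mean, at 205, 282 and 266 CPM against 199, 199.6 and 191 CPM (log2 fold change -0.35, edgeR adjusted p = 0.161), and 36.5% of its sequence occurs in other genes. Without ad libitum replicate 1 edgeR called both, Por at 0.30 and Noct at -0.48 (edgeR adjusted p = 0.0422 and 0.0172).

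Cirbp and Rbm3, cold-inducible RNA-binding proteins that bind transcripts of clock genes, both passed the test. Cirbp was at 57.6, 57.9 and 60.2 CPM in the ad libitum libraries, against 96.1, 85.9 and 91.6 CPM in the fasting libraries, a log2 difference of 0.64 (standard error 0.06, edgeR adjusted p = 0.0292). Rbm3 rose by 0.96 on the log2 scale (edgeR adjusted p = 0.0258), and in both genes fasting replicate 2 was again the lowest fasting library. Words of 31 bases shared with other genes, mainly Rbm3-ps, made up 9.75% of the Rbm3 sequence, so its counts are less certain. Of 13 glucocorticoid-responsive genes 2 were called, both higher, Zbtb16 (1.24) and Cdkn1a (1.12), against 0.497% of all genes, and the median log2 fold change was 0.30. At an unadjusted p below 0.05 there were 8 of the 13, all higher, DESeq2 called 6, and in 7 every fasting library lay above every ad libitum library, against 8.74%, 2.9% and 12.5% of all genes in that direction. Of 10 immediate early genes 1 was called, Arc, which was lower (-0.82), and the median was -0.20. Of these 10 genes 3 were lower and 0 higher at an unadjusted p below 0.05, against 20.4% of all genes in either direction. DESeq2 called 2 as lower and 0 as higher, against 7.4% of all genes in either direction.

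Within a library, a ratio to Bmal1 does not depend on depth, and Bmal1 peaks in opposite phase to the Per, Nr1d1 and Dbp genes in most tissues. The log2 ratio of Per2 to Bmal1 was -0.28, 0.14 and 0.45 ad libitum and 0.20, 0.17 and 0.52 under fasting. That of Nr1d1 was 2.06, 1.68 and 2.37 ad libitum and 1.69, 1.74 and 1.84 under fasting, and that of Dbp was 1.35, 1.64 and 1.92 and then 1.28, 1.37 and 1.56. All 10 ratios overlapped between diets. Differences of means ran from -0.28 for Nr1d1 to 0.20 for Cry1, and none passed in the two-sided exact permutation test over the 6 libraries (smallest exact p = 0.2, adjusted over the 10 ratios 0.667), where 3 against 3 allows no p below 0.1. These differences moved with single libraries: that of Nr1d1 was -0.11 without ad libitum replicate 3 and -0.46 without ad libitum replicate 2, that of Cry1 was 0.086 without ad libitum replicate 1 and 0.33 without ad libitum replicate 3, and that of Per2 was 0.0025 and 0.37 without the same libraries as for Cry1. The SD of the ratio was lower under fasting for all 10 genes, from 0.35 to 0.07 for Nr1d1. All 10 ratios share Bmal1, whose own SD of log2 CPM was 0.29 ad libitum and 0.13 under fasting. The SD of log2 CPM of the gene itself was instead higher under fasting for Per1 (0.09 and 0.22), Per2 (0.08 and 0.17), Cry1 (0.05 and 0.19), Cry2 (0.08 and 0.14) and Dbp (0.02 and 0.09).

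**Figure D4:**
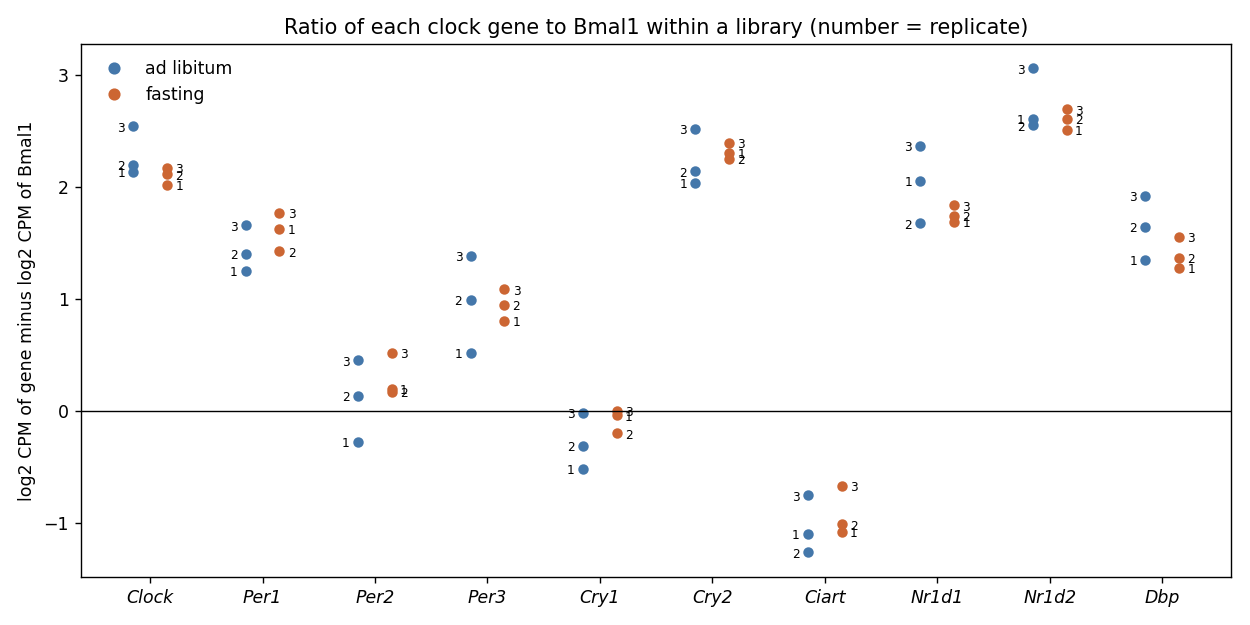
Log2 CPM of each clock gene minus log2 CPM of Bmal1 (vertical axis) in each ad libitum (blue) and fasting (orange) library, numbered by replicate. The groups overlap for all 10 genes, and the fasting points lie closer together for each, as do those of Bmal1 itself, which all ratios share (SD of log2 CPM 0.13 against 0.29).

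Per length, the REV-ERB genes had the highest levels of the 10 clock genes, though not of the wider clock list. There Fbxw11 and Tef had higher means than both in both diets, and Hlf, Gsk3b and Rora had higher means than both under fasting. In CPM per kilobase of annotated exon, Nr1d1 was at 29.6 ± 6.53 ad libitum and 26.6 ± 1.59 under fasting (SD, n = 3) and Nr1d2 at 27.2 ± 3.02 and 27.2 ± 1.14, a pair whose order was not separated from each other's spread. Dbp followed at 22.7 ± 0.370 and 21.3 ± 1.36, then Cry2 at 16.3 ± 0.950 and 19.1 ± 1.80, and Per1 at 10.6 ± 0.691 and 13.2 ± 1.94. Clock was at 7.83 ± 0.631 and 7.56 ± 0.332. Cry1, Ciart, Per3 and Per2 were the lowest, between 4.02 and 5.37 CPM per kilobase ad libitum and between 4.85 and 6.87 under fasting, and neighbours among these 4 were within their spread of one another in 1 diet or both. Clock and Cry1 were within their spread of each other under fasting and not ad libitum. Bmal1 was lower still, at 2.95 ± 0.594 and 3.22 ± 0.299. Exon lengths were those of GENCODE M21, so the order depends on which transcripts are used in this tissue.

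The genes whose levels followed a clock gene most closely over the 6 libraries were sought for the 3 clock genes with the largest SD of log2 CPM, Per1, Cry1 and Nr1d1, among 15543 other genes of at least 1 CPM. The measure was the root mean square difference of log2 CPM after centring each gene on its own mean. Per1 was followed most closely by Mir22hg (0.0429), Mal2 (0.0432) and Lonrf1 (0.0464). Cry1 was followed by Sub1 (0.0190), Mir22hg (0.0263) and Pcdhga3 (0.0319), of whose sequence 47.9% is shared with other protocadherin genes. Sub1 was at 122, 115 and 117 CPM in the ad libitum libraries, against 168, 130.4 and 148 CPM in the fasting libraries. Nr1d1 was followed by Gins3 (0.0428), Gpr3 (0.0587) and Gm47372 (0.0595). With 6 libraries and 15543 candidates such neighbours are a description of the libraries.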

How the data were processed

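Estimated counts, deposited as whole numbers with no scaling between libraries, covered 19251 genes in 6 libraries. The tools named are Salmon and DESeq2 1.40.2 and the build GRCm39 (mm39), per the submitters' processing notes. Role, order, annotation release, strand setting and rounding were not given in the sources used here. Per the labels' protocols, RNA came from substantia nigra lysate and libraries from a kit that keeps strand. Each gene had at least 60 counts in all.

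edgeR 4.0.16 in R 4.3.3 was run with filterByExpr (142 genes left out), TMM scaling and the two-sided quasi-likelihood test with robust shrinkage and no covariate, over all 19109 genes with Benjamini-Hochberg adjustment and a threshold of 0.05. Standard errors are the size of the log2 fold change over the square root of F, and 95% intervals use the total degrees of freedom. The residual degrees of freedom were 4. Log2 CPM used a prior count of 2. DESeq2 1.42.0, other scaling, no filter, no robust shrinkage, a replicate term, each library left out and, for the ratios, a prior count of 0.5 were alternatives. P-values measure only the spread between these samples, which may be technical. The fits were also run on simulated data, in which all planted changes were larger than those of the clock genes. Differences of the size seen here were not tested in that way.

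The genes and lists were chosen with earlier results of these data known. Named genes were the 10 clock genes, of the other clock genes Bmal1, Npas2, Tef, Hlf and the 4 of smallest p, the 3 closest followers of the 3 most variable clock genes, Th, Slc6a3, Cirbp, Rbm3 and up to 2 genes of smallest p from each further list. Rora, Rorb, Bhlhe40, Bhlhe41, Timeless, Isl1, Npvf, Six6, Pmch, Hcrt, Oxt, Avp, Fbxw11 and Gsk3b were chosen after their values were seen. From GENCODE M21, whose build (GRCm38) is not that of the files, came only exon lengths, overlaps and shared sequence. RefSeq promoter windows on GRCm38.p6 were matched by symbol.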

Additional observations from a re-analysis of the deposited data

How the results depend on the processing

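Among the 10 clock genes 0 were called in every fit except that of DESeq2, which called 1, Per2 (0.34). Of the other clock genes DESeq2 called 1, and edgeR called between 0 and 2 with a library left out. The count over all genes was 95 with the settings of the report, 1395 with DESeq2, 9 without robust shrinkage, and between 0 (without fasting replicate 1 or 3, with 2452 and 2495 genes at an unadjusted p below 0.05) and 1187 (without ad libitum replicate 1) with a library left out, including 45 without ad libitum replicate 2 and 1 without ad libitum replicate 3. The cause was not tested.

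Per1, Per2, Per3, Cry1, Cry2, Ciart and Dbp kept their direction, though not their size, in every fit. With a library left out, the log2 fold change of Clock ran from -0.096 to 0.018, that of Nr1d1 from -0.32 to 0.0099 and that of Nr1d2 from -0.084 to 0.082. Differences of the ratio to Bmal1 ran from -0.013 to 0.23 for Cry2, -0.24 to 0.19 for Per3, -0.23 to 0.026 for Nr1d2 and -0.0086 to 0.26 for Ciart. They ran from -0.46 to -0.11 for Nr1d1, 0.086 to 0.33 for Cry1, 0.0025 to 0.37 for Per2, 0.076 to 0.28 for Per1, -0.27 to -0.065 for Clock and -0.38 to -0.096 for Dbp. The log2 fold change of Per3 was lowest without ad libitum replicate 1 (0.043) and highest at 0.18, that of Dbp was nearest 0 without fasting replicate 2 (-0.042) and farthest at -0.14, and that of Ciart ran from 0.15 to 0.38. Per1 ranged from 0.23 to 0.43, Per2 from 0.26 to 0.43, Cry1 from 0.24 to 0.44 and Cry2 from 0.15 to 0.29, with a smallest edgeR adjusted p of 0.0932 among them.

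With the replicate number as a block, 0 of the 10 clock genes and 285 of all genes were called, with Cry1 at 0.35 (edgeR adjusted p = 0.12). The numbers are not known to pair the samples: correlations of deviations over 15553 genes were 0.304, -0.0477 and -0.193 for numbers 1, 2 and 3, and not every sample correlated best with its own number. What depth alone would limit was not tested.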
